A study of Homo sapiens with 12 samples.

Results

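The 39 genes described here make the machinery that copies DNA in S phase. They were taken by name, as every gene whose symbol in the combined count table is in a set. The set holds replication origin, replication fork and nucleotide synthesis genes. It was chosen with earlier results of these data known, so counts set beside all genes are not an independent test. The members are 39 of the 58735 gene IDs listed, and each symbol met 1 ID. All 39 passed the filter on low counts that left 18415 genes for testing. Their summed level was lowest in YAP-TFE3 (YT) cells with the control hairpin. In the YT cells 24 of the 39 rose when ZZZ3 was knocked down and 0 fell, where 4.40% of all genes tested rose and 5.62% fell. This count leaned heavily on single libraries, above all those of the YT shNT pair, as described below. The rise was not particular to replication genes, as 11 of 12 genes of mitosis rose too. In the TAZ-CAMTA1 (TC) cells 0 of the 39 passed the test with either hairpin, where few genes of any kind did: 0.0326% of all genes rose and 0.0109% fell with the YEATS2 hairpin, and 0.934% rose and 0.592% fell with the ZZZ3 hairpin. In TC with the ZZZ3 hairpin 37 of the 39 had a positive log2 fold change, where 48.4% of all genes did. The members are read from the same libraries, so these values are not separate observations. Between the 2 libraries of TC shYEATS2 alone, 39 of 39 members differed in the same direction.

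Before a cell can enter S phase, the origin recognition complex, CDC6 and CDT1 load rings of MCM2 to MCM7 onto DNA, a step known as origin licensing. CDC45 and the GINS complex then join the rings to form the active helicase, and polymerases alpha, delta and epsilon, the sliding clamp PCNA and the clamp loader RFC copy both strands. Many of these genes are transcribed together at the G1/S boundary under E2F factors, and are widely used to read how much of a cell population is cycling. RNA from a bulk culture sums over its cells, so fewer cells in S phase and less RNA per cell in S phase cannot be told apart in any result below.

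The cell line was SW872, a human line from a liposarcoma, made to express TC or YT, which are fusion oncoproteins of epithelioid haemangioendothelioma. Each line carried a non-targeting hairpin (shNT) or a hairpin against YEATS2 (shYEATS2) or ZZZ3 (shZZZ3), both parts of ATAC, a histone acetyltransferase complex. This gave 6 groups of 2 libraries, and every group, the shNT controls included, carried a fusion and a hairpin construct. Per the study's methods the lines were pools selected with drugs and not single clones. The study lists several hairpins to each gene for its screen, and which of them made these lines is not stated. It describes the 2 libraries of each condition as biological duplicates, so that p values measure the spread between 2 such libraries per group.

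Total counts ran from 17451893 to 29294805 per library, and the YT shNT pair held 18880502 and 17451893. Levels are given as TMM-normalised CPM, read counts scaled to a common library size, in the order replicate 1 and replicate 2. In TC, YEATS2 read 113 and 123 CPM with shNT and 45.5 and 35.1 with its own hairpin, and in YT 115 and 117 and 33.9 and 38.5. It fell in TC (log2 fold change -1.54, SE 0.177, edgeR adjusted p = 0.0138) and in YT (log2 fold change -1.68, SE 0.178, edgeR adjusted p = 0.000104). ZZZ3, listed in the table under the symbol AC118549.1, read in YT 71.2 and 49.1 CPM with shNT and 12.6 and 29.6 with its hairpin, and fell (log2 fold change -1.51, SE 0.426, edgeR adjusted p = 0.0453). In TC it read 25.6 and 60.4 with shNT and 21.9 and 22.7 with shZZZ3, a difference that did not pass the test (log2 fold change -0.94, SE 0.422, edgeR adjusted p = 0.45). With the YEATS2 hairpin in YT it read 31.4 and 30.7 CPM (log2 fold change -0.95, SE 0.42, edgeR adjusted p = 0.13). Among the markers for the cell type, VIM read 696 to 2152 CPM, FN1 2577 to 10540, COL5A1 397 to 732 and PDGFRB 213 to 533. THY1, at 15.2 to 63.9 CPM, and S100A4, at 10.6 to 34.5, were lower. The adipocyte genes ADIPOQ, LEP, CIDEC and FABP4 held at most 7 counts in any library. PLIN1 reached at most 1.55 CPM, and PPARG lay between 36.8 and 109 CPM. Of the 6 mesenchymal genes, VIM and THY1 were called higher with both hairpins in YT, PDGFRB lower with shYEATS2 and FN1 lower with shZZZ3 in both lines, and VIM was lower in YT than in TC with shNT (log2 fold change -0.93).

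Of the markers of other cell types, the epithelial and leukocyte genes were low in level, whereas the endothelial genes CDH5 and KDR reached 91.4 and 133 CPM. Some of these markers moved between the groups, and their part in the results below was not tested. The 4 epithelial genes (EPCAM, CDH1, ESRP1 and CLDN4) summed to 18.5 and 16 CPM in YT shNT and to between 6.1 and 10.9 in the other libraries, through ESRP1, which read 14.8 and 13.4 CPM there and at most 5.37 elsewhere. ESRP1 was called higher in YT than in TC with shNT (log2 fold change 2.68, SE 0.265, edgeR adjusted p = 0.000136), lower with both hairpins in YT (log2 fold change -1.61 with shYEATS2 and -2.43 with shZZZ3) and lower in both interactions, and CDH1 was called lower in YT than in TC with shZZZ3 (log2 fold change -2.21, SE 0.747, edgeR adjusted p = 0.0388). Of the leukocyte genes, PTPRC held at most 3 counts, CD3E was at or below 0.619 CPM, and LYZ read 0.37 and 0.748 CPM in YT shNT and 3.41 and 2.79 with shYEATS2, called higher there (log2 fold change 2.31, SE 0.501, edgeR adjusted p = 0.00535) and against TC shYEATS2 (log2 fold change 2.89, SE 0.519, edgeR adjusted p = 0.00208).

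The 4 endothelial genes (PECAM1, CDH5, VWF and KDR) summed in YT to 40.5 and 42.3 CPM with shNT, 33.6 and 31.7 with shYEATS2 and 139 and 137 with shZZZ3. In TC the sum was 65.4 and 74.4 CPM with shNT, 46.8 and 245 with shYEATS2 and 56.5 and 51.7 with shZZZ3. These genes differed between groups in some of the comparisons below, not always in the direction of the members. With shZZZ3 in TC their median log2 fold change was -0.83 and that of the members 0.55. The called genes among them are named below.

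The promoters of these genes show what the members share in sequence. RefSeq promoters (GRCh38.p14, 250 bases before to 50 bases after each transcription start) matched 34 of the 39 members with 43 promoters, and MCM4, MCM5, RPA2, CCNE2 and GINS4 had none in the table. They were searched on both strands for 4 spellings of the E2F site (TTTCCCGC, TTTCGCGC, TTTGCCGC and TTTGGCGC) and for the CCAAT box. An E2F spelling was present in 20 of the 43 promoters (46.5%) against 1164 of all 35116 promoters (3.31%), and a CCAAT box in 26 (60.5%) against 34.6% of all promoters. Spellings can overlap, as they did in MCM2 and MCM6, and a promoter was counted once. The following 6 are shown, as the first of the members with full values whose match lies before the start, and they hold genes that rose in YT shZZZ3 and genes that did not pass the test there. Each is the 150 bases before the start, 5′ to 3′ on the gene's strand, with the E2F spelling in capitals.
CDT1 (chr16:88803639-88803788, plus strand): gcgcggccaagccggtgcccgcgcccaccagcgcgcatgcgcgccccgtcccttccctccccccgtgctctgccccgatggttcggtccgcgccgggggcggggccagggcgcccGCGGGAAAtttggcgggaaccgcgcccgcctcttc
GINS2 (chr16:85688955-85689104, minus strand): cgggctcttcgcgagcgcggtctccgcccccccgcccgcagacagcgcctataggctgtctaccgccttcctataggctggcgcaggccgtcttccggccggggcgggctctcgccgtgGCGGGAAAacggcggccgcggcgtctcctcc
POLA1 (chrX:24693768-24693917, plus strand): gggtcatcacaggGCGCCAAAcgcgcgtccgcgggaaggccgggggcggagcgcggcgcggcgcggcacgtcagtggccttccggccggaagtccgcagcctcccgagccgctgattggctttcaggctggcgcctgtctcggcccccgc
PCNA (chr20:5126623-5126772, minus strand): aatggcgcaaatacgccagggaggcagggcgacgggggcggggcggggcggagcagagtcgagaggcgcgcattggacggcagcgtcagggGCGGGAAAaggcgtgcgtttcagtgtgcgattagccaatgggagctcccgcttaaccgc
RFC3 (chr13:33817999-33818148, plus strand): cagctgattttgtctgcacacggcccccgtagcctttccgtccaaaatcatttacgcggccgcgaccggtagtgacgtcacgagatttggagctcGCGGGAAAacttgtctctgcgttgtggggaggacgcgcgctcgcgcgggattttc
LIG1 (chr19:48170345-48170494, minus strand): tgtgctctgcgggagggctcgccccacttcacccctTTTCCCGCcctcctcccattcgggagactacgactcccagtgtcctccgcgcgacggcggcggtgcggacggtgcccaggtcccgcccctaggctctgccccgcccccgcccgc
In CDT1, GINS2, PCNA, RFC3 and LIG1 the capitals are the spelling TTTCCCGC, read on the gene's own strand in LIG1 and on the opposite strand in the other genes. POLA1 holds TTTGGCGC on the opposite strand. The match begins 35 bases before the start of CDT1, 31 before GINS2, 59 before PCNA, 55 before RFC3, 137 before POLA1 and 114 before LIG1. A match is a description of the letters and not a measured binding site. The 6 genes did not move alike: in YT shZZZ3 CDT1, GINS2, PCNA and LIG1 rose, whereas POLA1 and RFC3 did not pass the test, as the values below show.

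**Figure D1:**
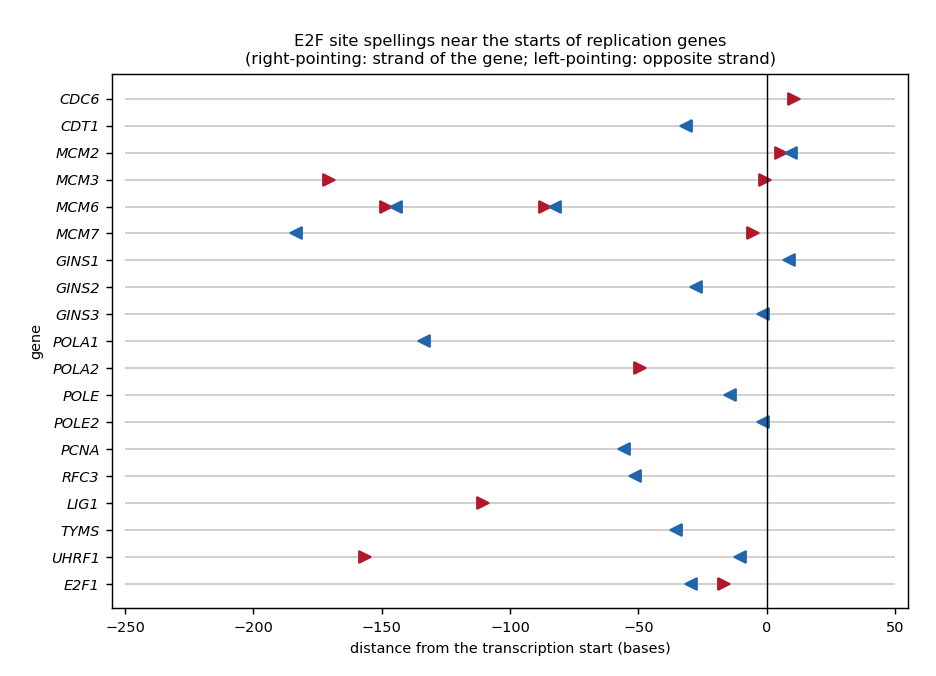
Position of each E2F spelling in the RefSeq promoters of the 19 members that hold one, in bases from the transcription start (0); right-pointing red marks are matches on the gene's strand and left-pointing blue marks on the opposite strand. Matches run from 187 bases before the start (MCM7) to 14 after it (CDC6), and MCM6 holds 4.

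The members were first laid side by side in the 12 libraries. The YT shNT pair were the 2 lowest of the 12 libraries for 28 of the 39 members, where this was so for 9.95% of all genes tested, and the TC shZZZ3 pair the 2 highest for 23, where this was so for 3.98%. In YT the summed level of the 39 was 1274 and 1429 CPM with shNT, 1714 and 1675 with shYEATS2 and 3031 and 2512 with shZZZ3. In TC it was 2651 and 2316 CPM with shNT, 3062 and 1969 with shYEATS2 and 3713 and 3548 with shZZZ3. The YT pairs were ordered shNT, shYEATS2, shZZZ3 with no overlap in this sum, whereas in TC the shYEATS2 libraries lay on both sides of the shNT pair and the shZZZ3 pair lay above all others.

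**Figure D2:**
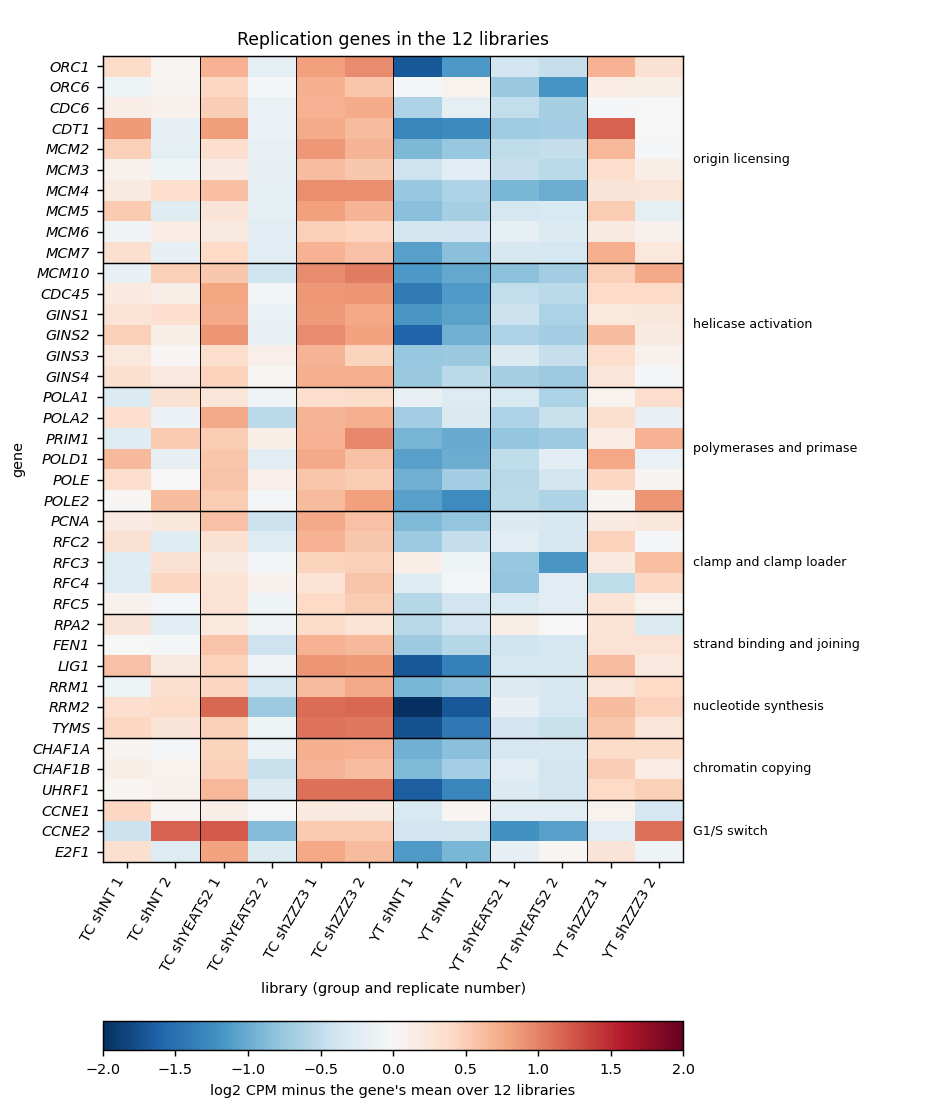
Log2 CPM of each of the 39 genes in each of the 12 libraries, as the difference from that gene's mean over all libraries (blue below, red above; genes in rows by role, libraries in columns). The YT shNT columns are the bluest and the TC shZZZ3 columns the reddest for most genes, and CCNE2 stands out by differences between replicates.

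Knock-down of ZZZ3 in YT cells was examined first, as the comparison in which the most members changed. All 39 members had a positive log2 fold change, where 50.9% of all genes did, from 0.01 in CCNE1 to 2.52 in RRM2, with a median of 1.06 beside 0.01 over all genes tested. A gene is called changed where its Benjamini-Hochberg adjusted p from edgeR's quasi-likelihood test was under 0.05. By this rule 24 members rose and 0 fell, where 4.40% of all genes rose and 5.62% fell. Both shZZZ3 libraries lay above both shNT libraries for 37 members and below for 0, where 25.6% and 27.1% of all genes did so. The called members covered every role but the G1/S switch: 5 of 10 licensing genes, 6 of 6 helicase activation genes, 4 of 6 polymerase and primase genes, 1 of 5 clamp and clamp loader genes, 2 of 3 strand binding and joining genes, and 3 of 3 in each of nucleotide synthesis and chromatin copying.

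This count leaned on the control pair. With YT shNT replicate 1 left out, 3 members were called (LIG1, TYMS and UHRF1). Leaving out YT shNT replicate 2 gave 9, and leaving out replicate 1 of YT shZZZ3 gave 14; the remaining library of a group is then assumed to vary like the other groups. Of the 4 endothelial genes, both shZZZ3 libraries lay above both shNT libraries for 4, 2 were called higher (PECAM1 and CDH5) and none was at 0. The epithelial gene ESRP1 was called lower.

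**Figure D3:**
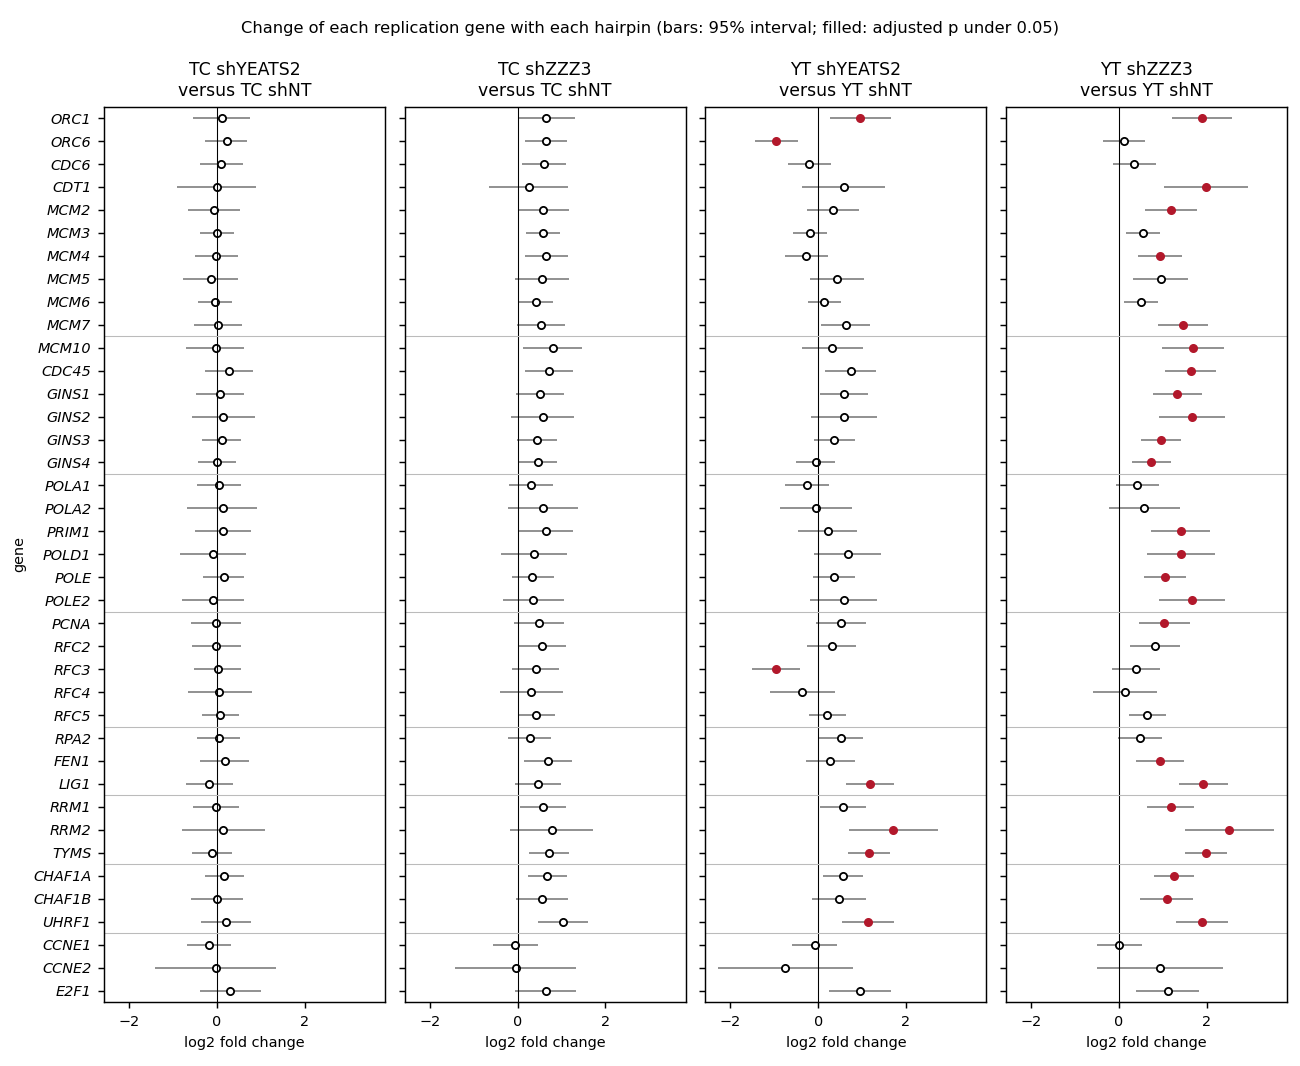
Log2 fold change of each of the 39 genes with each hairpin against shNT of the same line (points), with 95% intervals from the fit (bars); filled points have an edgeR adjusted p under 0.05. The filled points lie mainly in YT shZZZ3 (24), with 7 in YT shYEATS2 and 0 in TC.

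Of the role classes, nucleotide synthesis had the highest median log2 fold change in YT shZZZ3, 1.98, through RRM2 and TYMS. RRM2 codes for the small subunit of ribonucleotide reductase, the enzyme that makes deoxynucleotides and whose small subunit is made in S phase. The gene lies on GRCh38 at chr2:10120698-10211725, plus strand. RRM2 read in YT 6.55 and 10.1 CPM with shNT, 29 and 25.9 with shYEATS2 and 50.7 and 45 with shZZZ3. RRM2 in TC read 41 and 42.5 with shNT, 72.7 and 19.8 with shYEATS2 and 71.1 and 72.6 with shZZZ3. The 3 YT pairs did not overlap, while the TC shYEATS2 libraries lay at opposite ends of the TC range. RRM2 rose 5.72-fold in YT shZZZ3 (log2 fold change 2.52, SE 0.465, edgeR adjusted p = 0.00624) and 3.28-fold in YT shYEATS2 (log2 fold change 1.71, SE 0.457, edgeR adjusted p = 0.0213).

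TYMS makes thymidylate, the nucleotide that only DNA uses, and lies at chr18:657653-673578, plus strand. TYMS read in YT 22.7 and 28 CPM with shNT, 58.1 and 55.4 with shYEATS2 and 111 and 89.9 with shZZZ3. TYMS in TC read 101 and 90.5 with shNT, 105 and 71.6 with shYEATS2 and 160 and 157 with shZZZ3. Its YT pairs did not overlap, and it rose 3.95-fold in YT shZZZ3 (log2 fold change 1.98, SE 0.218, edgeR adjusted p = 0.000531) and 2.24-fold in YT shYEATS2 (log2 fold change 1.16, SE 0.214, edgeR adjusted p = 0.00326). In GENCODE release 44, 47.9% of the exon bases of TYMS lie over exons of ENOSF1 or TYMSOS on the opposite strand, and the strand setting of the counting is not stated. ENOSF1 was at or below 17.9 CPM in every library, with a log2 fold change of -0.70 in YT shZZZ3 and -2.41 in YT shYEATS2, both opposite in sign to that of TYMS. Exons of other genes also lay over at least 10% of the exon bases of CCNE2, MCM2, GINS3, GINS4 and RFC5 on the opposite strand. Reads from those stretches were told apart only if the counting used the strand. For POLA2 and PRIM1 such exons lay on the same strand, where strand cannot tell the reads apart.

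RRM1, the large subunit of ribonucleotide reductase, moved less. It read in YT 52.8 and 55.8 CPM with shNT, 82.2 and 79.1 with shYEATS2 and 117 and 130 with shZZZ3. RRM1 in TC read 92.7 and 123 with shNT, 134 and 77.9 with shYEATS2 and 153 and 167 with shZZZ3. It rose in YT shZZZ3 (log2 fold change 1.18, SE 0.242, edgeR adjusted p = 0.0106), and its difference in YT shYEATS2 did not pass the test (log2 fold change 0.57, SE 0.241, edgeR adjusted p = 0.116) although the pairs did not overlap.

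Among the strand joining genes, LIG1 codes for the ligase that seals the fragments of the lagging strand, and lies at chr19:48115445-48170603, minus strand. LIG1 read in YT 9.61 and 12.3 CPM with shNT, 24.6 and 25.1 with shYEATS2 and 47.8 and 35.6 with shZZZ3. LIG1 in TC read 47.1 and 35.3 with shNT, 43.1 and 29.9 with shYEATS2 and 57.7 and 56.4 with shZZZ3. The YT shNT pair lay below the other 10 libraries, and LIG1 rose in YT shZZZ3 (log2 fold change 1.92, SE 0.254, edgeR adjusted p = 0.00119) and in YT shYEATS2 (log2 fold change 1.18, SE 0.251, edgeR adjusted p = 0.00701). FEN1, the nuclease that trims the same fragments, read in YT 50.7 and 56.8 CPM with shNT, 63.7 and 66 with shYEATS2 and 103 and 103 with shZZZ3. FEN1 in TC read 84.2 and 82.8 with shNT, 125 and 63.6 with shYEATS2 and 137 and 132 with shZZZ3. It rose in YT shZZZ3 (log2 fold change 0.94, SE 0.254, edgeR adjusted p = 0.0389) but not by the test in YT shYEATS2 (log2 fold change 0.27, 95% interval -0.28 to 0.83). RPA2, a subunit of the protein that coats single-stranded DNA, ran from 48.1 to 90.6 CPM and was called in no comparison.

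**Figure D4:**
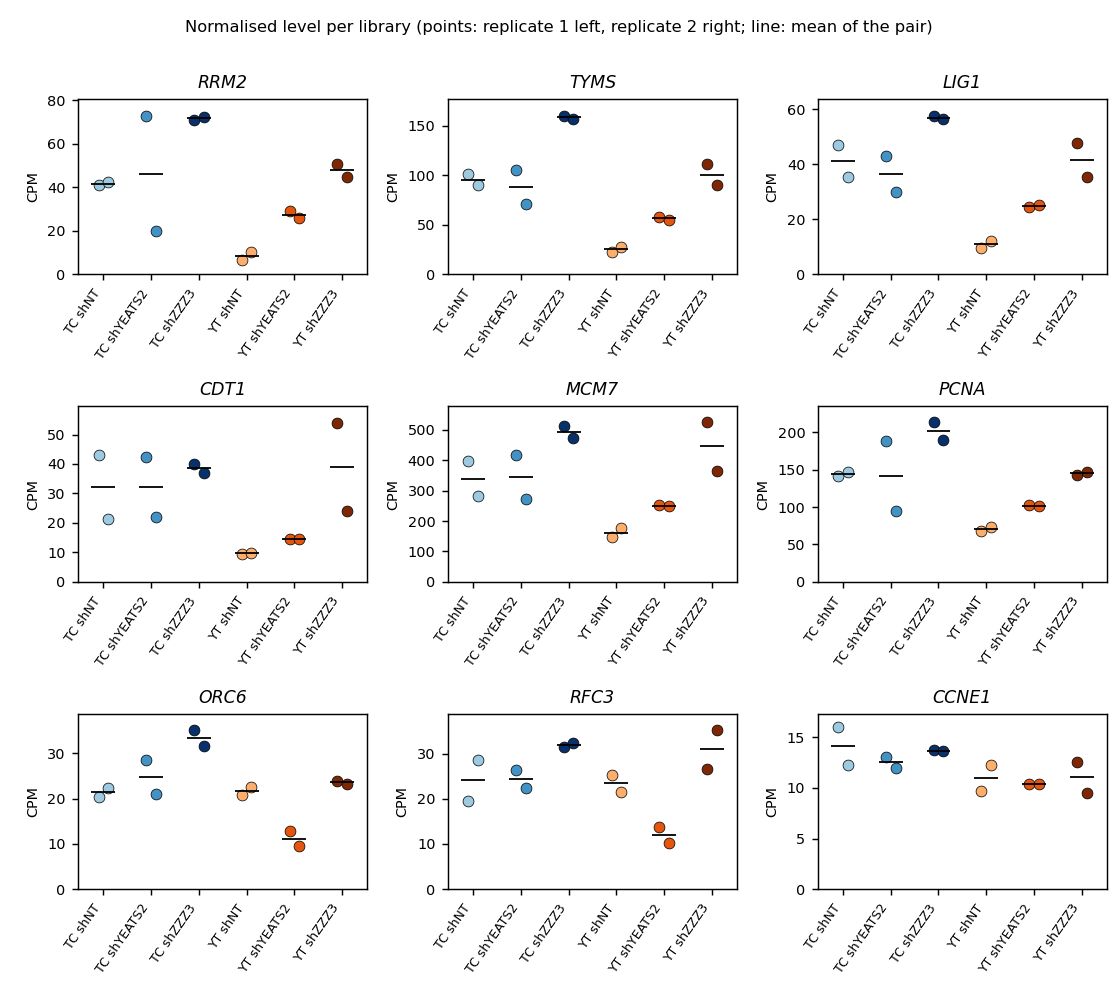
CPM of 9 of the genes in each library by group (points, replicate 1 on the left and replicate 2 on the right; lines, mean of the 2 libraries; linear axes from 0). RRM2, TYMS, LIG1, MCM7 and PCNA climb from YT shNT through YT shYEATS2 to YT shZZZ3, ORC6 and RFC3 are lowest in YT shYEATS2, and CCNE1 spans 9.52 to 16 CPM.

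All 6 helicase activation genes rose in YT shZZZ3. CDC45, which travels with the MCM ring, read in YT 7.18 and 8.74 CPM with shNT, 13.5 and 13.2 with shYEATS2 and 24.9 and 25 with shZZZ3. CDC45 in TC read 21.8 and 20.8 with shNT, 33 and 18.4 with shYEATS2 and 34.7 and 35 with shZZZ3. The 3 YT pairs did not overlap, and the rise with shZZZ3 was 3.11-fold (log2 fold change 1.64, SE 0.263, edgeR adjusted p = 0.00301). GINS2, one of the 4 GINS subunits, read in YT 7.13 and 11.2 CPM with shNT, 14.2 and 13.4 with shYEATS2 and 33.8 and 24.5 with shZZZ3, again without overlap. GINS2 in TC read 30.1 and 23.6 with shNT, 39.9 and 19.5 with shYEATS2 and 42 and 37.8 with shZZZ3. It rose in YT shZZZ3 (log2 fold change 1.66, SE 0.342, edgeR adjusted p = 0.0105).

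MCM10, which helps to start unwinding, read in YT 5.12 and 5.64 CPM with shNT, 6.49 and 7.02 with shYEATS2 and 15.8 and 19.3 with shZZZ3. MCM10 in TC read 10.3 and 15.8 with shNT, 16.6 and 8.69 with shYEATS2 and 22 and 23.4 with shZZZ3. It rose in YT shZZZ3 (log2 fold change 1.69, SE 0.319, edgeR adjusted p = 0.00678). The log2 fold changes of the other GINS subunits in the same comparison were 1.33 (GINS1), 0.96 (GINS3) and 0.74 (GINS4). None of the 6 was called with shYEATS2, where CDC45 came nearest (log2 fold change 0.74, SE 0.261, edgeR adjusted p = 0.0658). Per length of the merged exons, GINS3 was the least abundant of the 4 GINS transcripts in every group, from 1.96 CPM per kb in YT shNT to 4.88 in TC shZZZ3, and the ratio of the most to the least abundant ran from 1.68 to 2.54.

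The licensing genes divided. CDT1, the MCM loader that is destroyed once S phase begins, read in YT 9.61 and 9.89 CPM with shNT, 14.6 and 14.7 with shYEATS2 and 53.9 and 23.9 with shZZZ3. CDT1 in TC read 43.1 and 21.3 with shNT, 42.3 and 22 with shYEATS2 and 40 and 37 with shZZZ3. It rose 3.96-fold in YT shZZZ3 (log2 fold change 1.99, SE 0.434, edgeR adjusted p = 0.0146), and the 2 libraries of 3 groups differed by more than 1.5-fold. CDT1 has the highest GC content of the members, 64.9%, shared with POLD1. ORC1, the largest subunit of the origin recognition complex, read in YT 4.91 and 7.19 CPM with shNT, 12.2 and 11.5 with shYEATS2 and 25.6 and 19.5 with shZZZ3. ORC1 in TC read 20.5 and 16.3 with shNT, 25.8 and 14 with shYEATS2 and 28.1 and 30.4 with shZZZ3. It rose in YT with shZZZ3 (log2 fold change 1.89, SE 0.314, edgeR adjusted p = 0.00361) and with shYEATS2 (log2 fold change 0.96, SE 0.312, edgeR adjusted p = 0.047).

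MCM2 read in YT 74.6 and 82.1 CPM with shNT, 97.7 and 99.8 with shYEATS2 and 220 and 138 with shZZZ3, and rose in YT shZZZ3 (log2 fold change 1.19, SE 0.274, edgeR adjusted p = 0.0191). MCM2 in TC read 194 and 123 with shNT, 176 and 126 with shYEATS2 and 254 and 223 with shZZZ3. MCM5 read in YT 59.2 and 66.6 CPM with shNT, 83.3 and 86 with shYEATS2 and 151 and 92.7 with shZZZ3, without overlap between the pairs, but did not pass the test in YT shZZZ3 (log2 fold change 0.95, SE 0.285, edgeR adjusted p = 0.0572). MCM5 in TC read 152 and 89.1 with shNT, 127 and 92.7 with shYEATS2 and 187 and 169 with shZZZ3. Of the other subunits of the ring, MCM7 (log2 fold change 1.46) and MCM4 (0.94) were called in YT shZZZ3, and MCM3 (0.55) and MCM6 (0.51) were not.

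The 6 ring subunits, which assemble in equal numbers in the protein complex, differed in level per length of the merged exons. That length takes in every annotated exon and need not be the length of the transcript made. The most abundant exceeded the least abundant by 4.04-fold in TC shZZZ3 and by 7.41-fold in YT shYEATS2, with the other groups in between. MCM7 was highest in 5 of the 6 groups and MCM3 in YT shNT, while MCM4 or MCM5 was lowest. MCM4 and MCM5 have the longest merged exons of the 6, at 9852 and 7268 bases, and their low rank depends on this length. By CPM alone, the TC shNT means were 157 for MCM4, 121 for MCM5 and 103 for MCM6. In YT shNT the range was 8.22 CPM per kb (MCM4) to 46.8 (MCM3), and in YT shZZZ3 15.7 (MCM4) to 89.8 (MCM7).

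CDC6 and ORC6 were likewise not called in YT shZZZ3. CDC6, the partner of CDT1 in loading, read in YT 26.7 and 36.1 CPM with shNT, 28.9 and 25.8 with shYEATS2 and 39.6 and 40.5 with shZZZ3. CDC6 in TC read 44.5 and 43.2 with shNT, 57.2 and 37 with shYEATS2 and 65.8 and 67.8 with shZZZ3. Its difference in YT shZZZ3 was not called (log2 fold change 0.35, SE 0.226, edgeR adjusted p = 0.378). ORC6, the smallest subunit of the origin recognition complex (chr16:46689643-46698394, plus strand), read in YT 20.9 and 22.5 CPM with shNT, 23.8 and 23.3 with shZZZ3 and 12.8 and 9.5 with shYEATS2. ORC6 in TC read 20.3 and 22.4 with shNT, 28.5 and 21 with shYEATS2 and 35.2 and 31.7 with shZZZ3. The YT shYEATS2 pair lay below the other 10 libraries and ORC6 fell there (log2 fold change -0.95, SE 0.223, edgeR adjusted p = 0.0115), while its difference in YT shZZZ3 was small against its error (log2 fold change 0.12, SE 0.219, edgeR adjusted p = 0.784).

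Among polymerases and primase, POLE2, the second subunit of the leading strand polymerase epsilon, read in YT 2.64 and 2.36 CPM with shNT, 3.87 and 3.66 with shYEATS2 and 5.86 and 10.4 with shZZZ3. POLE2 in TC read 5.72 and 8.7 with shNT, 7.97 and 5.47 with shYEATS2 and 8.69 and 9.89 with shZZZ3. The YT pairs did not overlap and POLE2 rose in YT shZZZ3 (log2 fold change 1.66, SE 0.342, edgeR adjusted p = 0.00968). POLA1, the catalytic subunit of polymerase alpha that starts each fragment with primase, read in YT 43.9 and 40.7 CPM with shNT, 39.5 and 31.2 with shYEATS2 and 51.3 and 62.2 with shZZZ3. POLA1 in TC read 40.4 and 60.2 with shNT, 57.4 and 46.1 with shYEATS2 and 61.1 and 62.9 with shZZZ3. It was not called in YT shZZZ3 (log2 fold change 0.42, SE 0.227, edgeR adjusted p = 0.28) or in any other comparison. Also in YT shZZZ3, POLD1, PRIM1 and POLE rose, with log2 fold changes of 1.42, 1.41 and 1.06, and POLA2, not called, had 0.58 with an interval of -0.23 to 1.40.

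PCNA was the only called gene of its class in YT shZZZ3. It codes for the ring that holds the polymerases on DNA. Per length of the merged exons it was the most abundant of the 39, at 95.8 CPM per kb over all libraries. Its merged exons, at 1403 bases, are also the shortest of the 39. PCNA read in YT 68.3 and 72.9 CPM with shNT, 103 and 101 with shYEATS2 and 143 and 147 with shZZZ3. PCNA in TC read 142 and 147 with shNT, 189 and 94.2 with shYEATS2 and 214 and 190 with shZZZ3. The YT pairs did not overlap, and PCNA rose in YT shZZZ3 (log2 fold change 1.04, SE 0.261, edgeR adjusted p = 0.0277) while its difference in YT shYEATS2 was not called (log2 fold change 0.53, SE 0.259, edgeR adjusted p = 0.171).

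The clamp loader subunit RFC3 (chr13:33818069-33966558, plus strand) followed another order. It read in YT 25.3 and 21.6 CPM with shNT, 26.5 and 35.3 with shZZZ3 and 13.7 and 10.3 with shYEATS2. RFC3 in TC read 19.5 and 28.6 with shNT, 26.4 and 22.4 with shYEATS2 and 31.4 and 32.3 with shZZZ3. As for ORC6, the YT shYEATS2 pair lay below the other 10 libraries, and RFC3 fell there (log2 fold change -0.96, SE 0.252, edgeR adjusted p = 0.0203). Its difference in YT shZZZ3 was not called (log2 fold change 0.40, SE 0.247, edgeR adjusted p = 0.36). RFC2, RFC4 and RFC5 were called in no comparison, with log2 fold changes of 0.83, 0.14 and 0.65 in YT shZZZ3. Per length of the merged exons, RFC2 was the most abundant of the 4 small RFC subunits in every group. It exceeded the least abundant by 3.11-fold in YT shNT and by 5.21-fold in YT shYEATS2.

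Genes that rebuild chromatin behind the fork rose together in YT shZZZ3. UHRF1, which brings the maintenance methyltransferase to newly copied DNA, read in YT 11.2 and 14.1 CPM with shNT, 28.9 and 27 with shYEATS2 and 45.9 and 48.7 with shZZZ3. UHRF1 in TC read 35.9 and 37.1 with shNT, 55.2 and 29 with shYEATS2 and 75.1 and 75.4 with shZZZ3. The YT pairs did not overlap and UHRF1 rose with shZZZ3 (log2 fold change 1.89, SE 0.271, edgeR adjusted p = 0.00161) and with shYEATS2 (log2 fold change 1.13, SE 0.267, edgeR adjusted p = 0.012). The histone chaperone subunits CHAF1A and CHAF1B had log2 fold changes of 1.26 and 1.10 in YT shZZZ3, both called, and of 0.56 and 0.48 in YT shYEATS2, neither called.

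The 3 genes of the G1/S switch were called in no comparison. E2F1, a factor that drives transcription of the others, read in YT 15.5 and 18 CPM with shNT, 30.3 and 34.7 with shYEATS2 and 40.7 and 31.8 with shZZZ3. E2F1 in TC read 42.3 and 28.3 with shNT, 59.3 and 28.1 with shYEATS2 and 57.9 and 52.8 with shZZZ3. Its YT shNT pair lay below all other libraries, and its adjusted p came close to the threshold with shZZZ3 (log2 fold change 1.11, SE 0.323, edgeR adjusted p = 0.051) and with shYEATS2 (log2 fold change 0.95, SE 0.322, edgeR adjusted p = 0.0564).

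CCNE1, a cyclin that activates CDK2 at the G1/S boundary, read in YT 9.71 and 12.3 CPM with shNT, 10.4 and 10.4 with shYEATS2 and 12.6 and 9.52 with shZZZ3. CCNE1 in TC read 16 and 12.3 with shNT, 13.1 and 12 with shYEATS2 and 13.7 and 13.6 with shZZZ3. The pairs overlapped, and the 95% interval of its log2 fold change in YT shZZZ3 was -0.50 to 0.52. CCNE2, its paralog, read in YT 2.96 and 2.99 CPM with shNT, 1.66 and 1.81 with shYEATS2 and 3.31 and 8.29 with shZZZ3. CCNE2 in TC read 2.86 and 8.7 with shNT, 8.99 and 2.11 with shYEATS2 and 5.56 and 5.56 with shZZZ3. In TC shNT, TC shYEATS2 and YT shZZZ3 the 2 libraries lay far apart, and its interval in YT shZZZ3 was -0.50 to 2.38. CCNE2 had the lowest GC content of the members (38.3%) and 37.1% of its exon bases lie over exons of other genes on the opposite strand, chiefly INTS8.

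Knock-down of YEATS2 in YT cells moved fewer members, and in both directions. RRM2, LIG1, TYMS, UHRF1 and ORC1 rose and RFC3 and ORC6 fell, which is 5 and 2 of 39 where 9.61% of all genes rose and 11.1% fell. The called share of the members was thus near that of all genes for rises and below it for falls. Of the 39 log2 fold changes 28 were positive, where 49.3% of all genes were, and their median was 0.37, beside -0.01 over all genes tested. Both shYEATS2 libraries lay above both shNT libraries for 28 members and below for 6, where 36.4% and 37.8% of all genes did so. The 4 endothelial genes held 0 called genes here, while LYZ was called higher and ESRP1 lower.

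The count of 7 depended on the libraries and on the fit. It was 1 without YT shNT replicate 1 (TYMS), 3 without YT shNT replicate 2, 3 and 2 without YT shYEATS2 replicate 1 and 2, and 13 without either TC shYEATS2 library, while the 2 YT groups fitted alone gave 20 higher and 3 lower. The comparisons of both hairpins in YT share the shNT libraries.

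In TC cells the YEATS2 hairpin left no detectable difference in these genes. With edgeR 0 of 39 members were called and 0 had an unadjusted p under 0.05, and DESeq2 also called 0; 0.0326% of all genes rose and 0.0109% fell. Of the log2 fold changes 23 were positive, where 48.1% of all genes were, and they ran from -0.17 (LIG1) to 0.31 (E2F1), with a median of 0.03 beside -0.01 over all genes tested. For each of the 39 the libraries of the groups overlapped, whereas 11.4% of all genes had both shYEATS2 libraries above both and 8.83% below both. The precision differed by gene: the 95% interval was -0.38 to 0.40 for MCM3 and -1.40 to 1.34 for CCNE2.

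The TC shYEATS2 pair were themselves far apart on these genes. Replicate 1 lay above replicate 2 for 39 of 39 members, by a median of 0.58 on the log2 scale, whereas over all genes tested 49.7% were higher in replicate 1. The endothelial sum went the other way in this pair, at 46.8 CPM in replicate 1 and 245 in replicate 2, with 12.8 and 133 CPM for KDR.

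The ZZZ3 hairpin in TC cells gave 0 called members in edgeR, where 0.934% of all genes rose and 0.592% fell, although 37 of 39 log2 fold changes were positive, where 48.4% of all genes were. Their median was 0.55, beside -0.01 over all genes tested, and 16 members had an unadjusted p under 0.05. Both shZZZ3 libraries lay above both shNT libraries for 33 members and below for 0, where 19.9% and 16.6% of all genes did so. UHRF1 came closest (log2 fold change 1.04, SE 0.26, edgeR adjusted p = 0.0909, 95% interval 0.47 to 1.61), and CCNE1 (-0.05) and CCNE2 (-0.04) were the 2 members with a negative value. DESeq2 called 1 member (UHRF1) and the fit with a GC correction 4 (MCM2, MCM3, MCM5 and TYMS), and UHRF1 was also called with either TC shYEATS2 library left out, joined by FEN1 without replicate 2. Of the 4 endothelial genes both shZZZ3 libraries lay below both for 3, none called.

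Whether the hairpins acted differently in the 2 lines was tested by the interaction, the log2 fold change in YT minus that in TC. As given above, the fall of ZZZ3 itself passed the test in YT and not in TC, so the ZZZ3 interaction need not compare equal knock-downs. For ZZZ3, LIG1 (difference 1.45, SE 0.346, edgeR adjusted p = 0.037) and TYMS (difference 1.26, SE 0.298, edgeR adjusted p = 0.0369) were called, 2 of 39 higher where 1.46% of all genes were higher and 2.86% lower. The median interaction of the members was 0.56, beside 0.04 over all genes tested, and 34 of 39 values were positive, where 52.5% of all genes were. RRM2 (difference 1.73, SE 0.622, edgeR adjusted p = 0.163) and CDT1 (difference 1.73, SE 0.593, edgeR adjusted p = 0.143) had larger values that did not pass the test, so that for 37 members no difference between the lines in response to shZZZ3 was shown. Of the endothelial genes PECAM1 was called in the same interaction (difference 3.97, SE 0.664, edgeR adjusted p = 0.00735), and the 4 values were all positive.

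For YEATS2, LIG1 (difference 1.35, SE 0.347, edgeR adjusted p = 0.0318) and TYMS (difference 1.28, SE 0.299, edgeR adjusted p = 0.0205) were higher and ORC6 (difference -1.17, SE 0.312, edgeR adjusted p = 0.0364) lower, 2 and 1 of 39 where 3.53% of all genes were higher and 5.84% lower. The share of members was near that of all genes for higher values and below it for lower ones. Of the 39 values 29 were positive, where 49.6% of all genes were, and the median was 0.39, beside -0.01 over all genes tested. Both interactions contain the YT shNT and TC shNT pairs.

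The interaction counts were small and moved with most libraries. For ZZZ3 the count was 0 with any library of YT shNT, TC shZZZ3 or YT shYEATS2 or replicate 1 of YT shZZZ3 left out, 1 (TYMS) without replicate 1 of TC shNT and 4 without replicate 2 of TC shYEATS2. For YEATS2 it was 0 with replicate 1 of YT shNT or either YT shYEATS2 library left out, 1 (TYMS) without replicate 1 of TC shNT, replicate 2 of YT shNT or either TC shZZZ3 library, and 6 without replicate 1 of TC shYEATS2.

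The lines were then compared under the same hairpin. With shNT, 22 members were lower in YT than in TC and 0 were higher, where 3.65% of all genes were lower and 5.58% higher. Of the 39 log2 fold changes 1 was positive, where 49.0% of all genes were, and they ran from -2.32 in RRM2 to 0.02 in ORC6, with a median of -0.95 beside -0.01 over all genes tested. Both YT libraries lay below both TC libraries for 33 members, where 25.3% of all genes did so. By role 5 licensing, 6 helicase activation, 4 polymerase and primase, 1 clamp, 1 strand joining, 3 nucleotide synthesis and 2 chromatin copying genes were called. The lowest adjusted p values were those of TYMS (log2 fold change -1.91, SE 0.218, edgeR adjusted p = 0.000387) and LIG1 (log2 fold change -1.90, SE 0.254, edgeR adjusted p = 0.00101).

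Of the 4 endothelial genes both YT libraries lay below both TC libraries for 3, none called, and ESRP1 was called higher.

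This comparison shares the YT shNT libraries with both knock-down comparisons in YT. Leaving out YT shNT replicate 1 left 2 called members (LIG1 and TYMS), leaving out its replicate 2 left 6 and leaving out TC shNT replicate 1 left 12, and the 2 groups fitted alone gave 11. The study's methods state that, among other lines of this kind, those containing CAMTA1 were collected below confluence and the remaining lines after confluence. Whether this means lines with the TC fusion, with CAMTA1 alone or both is not spelled out. No separate account is given of the libraries analysed here, so that the fusion and any difference in growth state at collection cannot be told apart.

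With shYEATS2, 9 members were lower in YT than in TC (ORC6, CDC6, MCM4, CDC45, GINS1, GINS4, PRIM1, POLE and RFC3) and 0 were higher, where 6.53% of all genes were lower and 5.65% higher. Of the log2 fold changes 0 were positive, where 47.5% of all genes were, with a median of -0.62 beside -0.03 over all genes tested. Both YT libraries lay below both TC libraries for 29 members, where 31.0% of all genes did so. The count ran from 0 without YT shYEATS2 replicate 2 to 22 without TC shYEATS2 replicate 2, was 1 without YT shYEATS2 replicate 1, 2 without TC shYEATS2 replicate 1, 4 without either TC shZZZ3 library, 5 without either YT shNT library, 14 with DESeq2 and 24 with the GC correction. Among the endothelial genes CDH5 (log2 fold change -2.34) and KDR (-2.50) were called lower here.

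With shZZZ3, 0 of 39 were called by edgeR or DESeq2, where 1.10% of all genes were lower and 1.52% higher, and 7 had an unadjusted p under 0.05. The median with shZZZ3 was -0.38 beside 0.01 over all genes tested, and 2 of 39 values were positive, where 50.8% of all genes were. Both YT libraries lay below both TC libraries for 29 members and above for 0. Of all 18415 genes 3875 lay below in this way and 3545 above. With either TC shYEATS2 library left out 1 member was called. For 4 of 4 endothelial genes both YT libraries lay above both TC libraries, with PECAM1 (log2 fold change 2.91) and VWF (1.71) called.

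The spread between the 2 libraries of a group was most closely related to base composition in TC shNT and YT shZZZ3. In TC shNT the 11 members under 45% GC were lower in replicate 1 by a median of 0.54 (log2 difference -0.54) and the 10 members at or above 55% GC higher by 0.53. In YT shZZZ3 these medians were -0.28 and 0.47. Across the 39 members, which share the same 2 libraries, the correlation of the difference with GC content was 0.84 in TC shNT and 0.78 in YT shZZZ3. It was 0.51 in TC shZZZ3, 0.02 in TC shYEATS2, -0.33 in YT shNT and -0.36 in YT shYEATS2. CDT1 and POLD1 stood at the GC-rich end and CCNE2, POLE2 and RFC3 at the GC-poor end of the members.

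**Figure D5:**
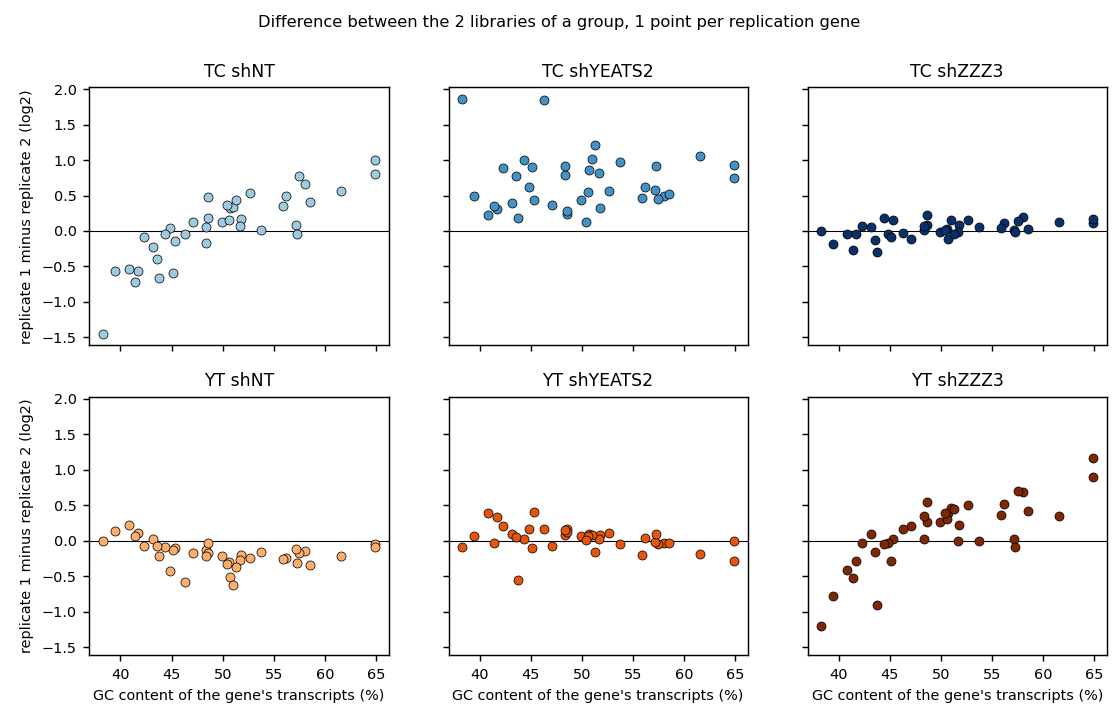
Log2 difference between replicate 1 and replicate 2 of each group for the 39 genes (1 point per gene) against the GC content of the gene's transcripts in percent. Points climb with GC content in TC shNT and YT shZZZ3, lie above 0 for all 39 genes in TC shYEATS2, and stay near 0 in TC shZZZ3.

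Libraries also differed in this trend over all genes. The difference between GC-rich and GC-poor genes was 0.777 and -0.628 on the log2 scale in TC shNT, 0.433 and -0.691 in YT shZZZ3 and -0.567 and -0.328 in YT shNT, each in the order replicate 1 and replicate 2. With each library corrected for its own trend, the called members were 32 in YT shZZZ3, 28 in YT shNT against TC shNT, 11 in YT shYEATS2 and 4 in TC shZZZ3.

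The wider pathway was read from lists written alongside the members. Of 42 other replication genes, all tested, 9 rose and 0 fell in YT shZZZ3, where 4.40% of all genes rose and 5.62% fell, with a median log2 fold change of 0.51 beside 0.01 over all genes tested. The largest were CLSPN (log2 fold change 2.04, SE 0.396, edgeR adjusted p = 0.00752), an adaptor of the replication checkpoint, TK1 (log2 fold change 1.91, SE 0.384, edgeR adjusted p = 0.00962), which salvages thymidine, and TICRR (log2 fold change 1.89, SE 0.277, edgeR adjusted p = 0.00185), which helps to fire origins. In YT shYEATS2, where 9.61% of all genes rose and 11.1% fell, shares that exceed those of this list, 1 rose (TIMELESS, log2 fold change 0.61, SE 0.189, edgeR adjusted p = 0.0423) and 3 fell, namely the origin recognition subunit ORC5 (log2 fold change -1.20, SE 0.202, edgeR adjusted p = 0.00174), the clamp loader subunit DSCC1 (log2 fold change -1.11, SE 0.326, edgeR adjusted p = 0.0314) and the origin firing factor MTBP (log2 fold change -1.08, SE 0.321, edgeR adjusted p = 0.0324). In both TC comparisons 0 of the 42 were called, where few genes of any kind were. Of all genes 0.0326% rose and 0.0109% fell with shYEATS2, and 0.934% rose and 0.592% fell with shZZZ3. With shNT 9 were lower in YT than in TC, where 3.65% of all genes were, with CLSPN (log2 fold change -1.73, SE 0.394, edgeR adjusted p = 0.0178), TK1 (log2 fold change -1.70, SE 0.382, edgeR adjusted p = 0.0176) and TICRR (log2 fold change -1.66, SE 0.276, edgeR adjusted p = 0.00356) furthest.

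With shYEATS2, 1 of these 42 was higher in YT than in TC (POLD4, log2 fold change 0.98, SE 0.283, edgeR adjusted p = 0.0433) and 5 were lower, where 5.65% of all genes were higher and 6.53% lower, with DSCC1 (log2 fold change -1.52, SE 0.324, edgeR adjusted p = 0.00955) furthest, followed by MTBP (-1.23, SE 0.319) and TICRR (-1.20, SE 0.269). ORC5 was the 1 called in the YEATS2 interaction (difference -1.19, SE 0.282, edgeR adjusted p = 0.0214), where 5.84% of all genes were lower. With shZZZ3, 0 of the 42 differed between the lines by the test, where 1.10% of all genes were lower and 1.52% higher.

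Of 17 regulators of S phase, which share CDC7 with the list above, 3 rose and 0 fell in YT shZZZ3, where 4.40% of all genes rose: MYBL2 (log2 fold change 2.32, SE 0.39, edgeR adjusted p = 0.00396), CCNA2 (log2 fold change 2.09, SE 0.272, edgeR adjusted p = 0.00109) and E2F2 (log2 fold change 1.36, SE 0.363, edgeR adjusted p = 0.034). In YT shYEATS2 1 rose and 2 fell, shares near the 9.61% and 11.1% of all genes. CCNA2 rose (log2 fold change 1.05, SE 0.268, edgeR adjusted p = 0.0179), while E2F8 (log2 fold change -1.33, SE 0.371, edgeR adjusted p = 0.0259), a repressor of the family, and RB1 (log2 fold change -1.27, SE 0.315, edgeR adjusted p = 0.0156), which holds E2F factors in check, fell. RB1 read 246 and 173 CPM in YT shNT and 89.3 and 84.3 in YT shYEATS2. CCNA2, the cyclin of S phase and G2, was the only regulator called in the ZZZ3 interaction, where 1.46% of all genes were higher (difference 1.52, SE 0.37, edgeR adjusted p = 0.0403). Between the lines, where 3.65%, 6.53% and 1.10% of all genes were lower in YT with shNT, shYEATS2 and shZZZ3, MYBL2, CCNA2 and E2F2 were lower in YT with shNT, DTL (log2 fold change -1.20, SE 0.255, edgeR adjusted p = 0.00961) with shYEATS2 and CDK2 (log2 fold change -0.77, SE 0.165, edgeR adjusted p = 0.0304) with shZZZ3.

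Of 12 genes of mitosis, 11 rose in YT shZZZ3, where 4.40% of all genes rose, with a median log2 fold change of 1.83 beside 0.01 over all genes tested. In YT shYEATS2 5 rose, where 9.61% of all genes rose, with a median of 0.73 beside -0.01. With shNT 10 were lower in YT than in TC, where 3.65% of all genes were, with a median of -1.66 beside -0.01. In TC shZZZ3 0 were called, where 0.934% of all genes rose, and the median was 0.54 beside -0.01.

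The promoter letters were then set beside the response. Of the 19 members with an E2F spelling 12 rose in YT shZZZ3, with a median log2 fold change of 1.11. Of the 15 members with a promoter in the table and no such spelling 10 rose, with a median of 1.18, among them RRM2 and ORC1. ORC6 had no E2F spelling in its window and RFC3 did. As no match says only that these letters are absent from the window, nothing is drawn from it about the factor.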

How the data were processed

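RNA-seq gene counts of 12 libraries were analysed in 6 groups of 2 taken from the labels. Per the study's methods, the authors made stranded poly(A) libraries, sequenced paired ends and ran bcbio-nextgen with HISAT2 against hg38; Salmon with tximport is named too, and which of them gave the deposited counts is not stated. The deposited values are raw whole-number counts per gene, not normalised. After TMM scaling, genes averaging 5 or more counts were kept, and edgeR (version 4.0.16, R 4.3.3, robust quasi-likelihood, prior count 2) was fitted to all 6 groups with 6 residual degrees of freedom. P values of 9 two-sided contrasts were adjusted by Benjamini-Hochberg over the 18415 genes tested and called under 0.05. The common biological coefficient of variation was 0.205. Log2 fold changes use the prior count; SE and 95% intervals are derived from the F statistic and its degrees of freedom. The procedure was also run on simulated counts, drawn gene by gene with no GC trend and no deviation shared between genes. That run therefore does not cover deviations of the kind seen between the libraries here. Coordinates of genes, exon lengths and GC content came from GENCODE release 44. Alternatives were DESeq2 (version 1.42.0) and its size factors, library totals, no filter, each contrast alone, a replicate block, a GC correction (lowess, span 0.3, genes averaging 50 or more counts) with and without the block, and each library left out. Full values are given for 20 listed members and for those called in a TC or interaction contrast; ORC1 was added after its values were seen; the promoters printed are the first 6 of those members with an E2F spelling before the start. Other lists are given by counts and up to 3 called genes per direction. The members and lists were chosen with earlier results of these data known.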

Additional observations from a re-analysis of the deposited data

Results flagged for a closer look

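In 5 instances the effect of a hairpin differed between the lines by the interaction test (YT minus TC, edgeR). LIG1 responded more in YT to YEATS2 knock-down (difference 1.35, SE 0.347, adjusted p = 0.0318) and to ZZZ3 knock-down (1.45, SE 0.346, adjusted p = 0.037). TYMS did so as well, by 1.28 for YEATS2 (adjusted p = 0.0205) and 1.26 for ZZZ3 (adjusted p = 0.0369). ORC6 went the other way, with -1.17 for YEATS2 (adjusted p = 0.0364). Both YT knock-down libraries of LIG1 and TYMS lay above both YT shNT libraries with either hairpin. The adjusted p of these results reached 0.129 and 0.155 for LIG1, 0.0943 and 0.155 for TYMS and 0.164 for ORC6 under the least favourable alternative. The YT shNT libraries enter all 5 values, which are not independent of each other. ZZZ3 itself was called lower with its hairpin in YT and not in TC, so its knock-down need not have been equal in the lines.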

How the results depend on the processing

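Over the 9 comparisons, no called member value changed sign under any alternative. Of the 67 called member values, 67 stayed called under DESeq2, its size factors, no filter, the replicate block and the GC correction with or without the block, 66 under scaling by library totals and 49 where the groups of a contrast were fitted alone. Leaving out YT shNT replicate 1 lost 56 of the 67, YT shNT replicate 2 lost 43, and the other libraries between 1 and 29; each such fit has fewer samples. Counts of called members that moved by more than 1.5 times were as follows. In TC shZZZ3, from 0, they were 1 with DESeq2, 1 with no filter, 4 with the GC correction and 5 with GC correction and block. In YT shYEATS2, from 7, they were 11, 14 and 23 with the GC correction, with GC correction and block, and alone. In YT shNT against TC shNT, from 22, the groups alone gave 11. In YT shYEATS2 against TC shYEATS2, from 9, they were 14 with DESeq2, 14 with no filter, 24 with the GC correction and 25 with GC correction and block. In YT shZZZ3 against TC shZZZ3, from 0, they were 3 with the GC correction and 4 with the block added. With the GC correction and with GC correction and block, the YEATS2 interaction, from 3, gave 5 and 5, and the ZZZ3 interaction, from 2, gave 7 and 8, and 9 with no filter. The cause of these shifts was not tested. With each library left out in turn the counts ranged from 0 to 0 in TC shYEATS2, 0 to 2 in TC shZZZ3, 1 to 13 in YT shYEATS2, 3 to 30 in YT shZZZ3, 2 to 26 in YT shNT against TC shNT, 0 to 22 in YT shYEATS2 against TC shYEATS2, 0 to 1 in YT shZZZ3 against TC shZZZ3, 0 to 6 in the YEATS2 interaction and 0 to 4 in the ZZZ3 interaction.

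Replicate numbers did not pair the samples in all groups: of 15 pairs of groups, 7 had deviations that correlated above 0.1, with a range of -0.438 to 0.898. The highest was between TC shNT and YT shZZZ3 and the lowest between TC shNT and YT shNT. Among the TC groups and YT shZZZ3 every correlation was positive, from 0.18 upward, so same-numbered libraries of these groups shared part of their deviations. With the replicate block the counts, in the order of comparisons just given, were 0, 0, 8, 28, 25, 11, 0, 3 and 2, and 0 called member values were lost. Scaling by DESeq2 size factors or by library totals shifted the median of all genes by at most 0.02 and 0.08. With 2 libraries a group the error of each pair is poorly known, and CCNE2, with 1.66 to 8.99 CPM, had intervals too wide to show differences of the size seen in other members.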
